A study of Homo sapiens with 5 samples.

Results

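Aminoacyl-tRNA synthetases and the scaffold proteins of their cytosolic complex were examined for translation efficiency in HL-60 cells given decitabine or the solvent DMSO. HL-60 is an established human promyelocytic leukaemia line, here with the genotype label WT in every group. Decitabine is a deoxycytidine analogue that traps DNA methyltransferases; cells received 100 nM at the start (0 hours) and again at 24 and at 48 hours, and both groups were lysed at 72 hours. The labels listed 2 total RNA libraries with decitabine, 2 with DMSO, and 1 pooled library of ribosome-protected fragments, and no source used here says whether the duplicate wells came from separate cultures. Members were chosen by gene symbol alone: every cytosolic or mitochondrial synthetase symbol, plus AIMP1, AIMP2 and EEF1E1. This gave 32 of the 6309 genes in the authors' deposited table, of which 20 were cytosolic and 12 mitochondrial. The multi-synthetase complex accounted for 11 of the cytosolic members. The table writes cytosolic enzymes without the 1 of their current symbols (KARS for KARS1), and its spelling is kept here.

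A synthetase joins an amino acid to its tRNA, and the elongation factor eEF1A, or TUFM in mitochondria, carries the charged tRNA to the ribosome. Most amino acids have a cytosolic enzyme and a separate nuclear-encoded mitochondrial one, whose symbol ends in ARS2, whereas KARS and GARS each serve both compartments from a single gene. Some cytosolic enzymes are held in the multi-synthetase complex, which is organised by the scaffold proteins AIMP1, AIMP2 and EEF1E1 (also called AIMP3). Uncharged tRNA activates the kinase GCN2, and many cytosolic synthetase genes are transcriptional targets of ATF4 downstream of it.

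Each gene had a single coefficient in the authors' deposited table, the log change of ribosome-protected relative to total RNA with decitabine against DMSO. No value per library was analysed, so the depth is unknown, no n stands beside the values, and the error given is a standard error implied by the authors' p-value. At most, then, the p-values reflect how far the labelled samples spread, which may be technical. No source used here says whether they measure that spread at all. The sample titles do not say how the pooled library of ribosome-protected fragments was divided by treatment or replicate. How many replicates stand behind the ribosome side of each coefficient is therefore unknown here. The log base is not stated; folds take it as natural, and a base of 2 would bring each fold nearer to 1. Lysates average over all cells of a well, so a change in some cells cannot be told apart from a smaller one in all. The median coefficient of all genes was 0.09, not 0, and 65.0% lay above 0. All 8 promyelocyte markers looked up were among the genes, and none of 11 erythroid, megakaryocyte or lymphoid markers was.

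No member passed an adjusted p-value of 0.05 in the authors' deposited table, against 0.808% of all genes, and the lowest adjusted p among the members was 0.176, for NARS. With the median of all genes as zero none passed either, against 0.586% of all genes. Without adjustment, 5 of 32 members had a p below 0.05 and a positive coefficient, which is 15.6% against 8.35% of all genes. These were AIMP2, KARS, AIMP1, NARS and LARS. A single member, QARS, had an unadjusted p below 0.05 and a negative coefficient, 3.13% of members against 1.95% of all genes. The members were measured more precisely, with a median implied standard error of 0.16 against 0.25 for all genes. Whether precision bears on these shares was not tested. When the median of all genes was taken as zero, none of the 5 kept an unadjusted p below 0.05, against 3.69% of all genes higher. QARS kept it then (unadjusted p = 0.00785, recomputed from the authors' deposited table), as 1 member of 32 against 4.25% of all genes lower. With zero as deposited, 20 of 32 coefficients were above 0, and 13 were above the median of all genes.

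**Figure D1:**
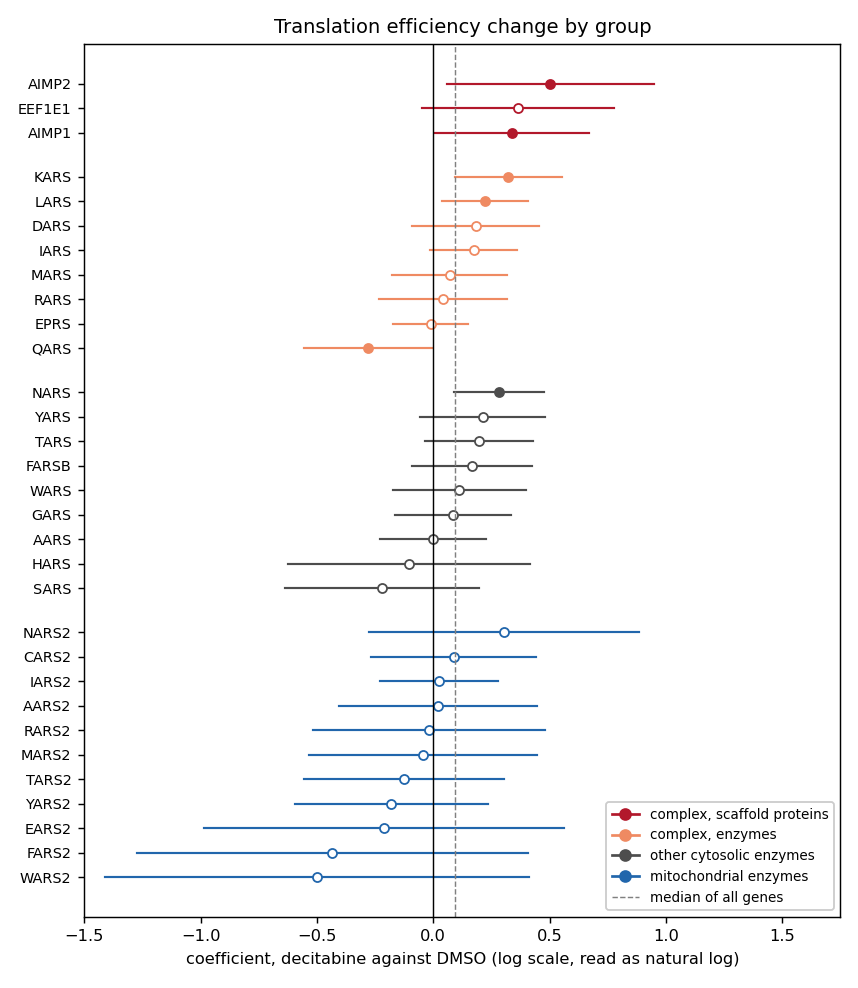
Coefficients of 31 of the 32 members (points) with its 95% interval from the implied standard error (lines), on the log scale of the authors' deposited table, by group; filled points have an unadjusted p below 0.05. The 3 scaffold proteins lie at 0.34 to 0.50, QARS lies at -0.28, and of the mitochondrial enzymes shown only NARS2 lies right of the dashed line at the median of all genes.

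The scaffold proteins of the multi-synthetase complex had the 3 highest coefficients of all members. AIMP2, which anchors KARS in the complex, was highest, with 0.50 ± 0.23 (implied SE) in the authors' deposited table (unadjusted p = 0.0268, adjusted p = 0.395). On a natural log scale this is 1.65 times the DMSO level, with a 95% interval of 1.06 to 2.58, and it is higher than 92.6% of all genes. EEF1E1, a small protein with a glutathione transferase-like fold that is also linked to DNA damage signalling, had, by the authors' deposited table, 0.36 ± 0.21 (unadjusted p = 0.0841, adjusted p = 0.567). AIMP1, the precursor of the secreted cytokine EMAP-II, had 0.34 ± 0.17 by the authors' deposited table (unadjusted p = 0.0446, adjusted p = 0.464). The 3 values lay within 1 implied standard error of each other. They are also the 3 least precise values of the complex, and the interval of each holds the median of all genes.

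The 8 enzymes of the complex ranged from -0.28 to 0.32 in the authors' deposited table, with a median of 0.12 against 0.09 for all genes. KARS, the lysyl enzyme bound by AIMP2, was highest with 0.32 ± 0.12 (implied SE) in the authors' deposited table (unadjusted p = 0.00625, adjusted p = 0.199), or 1.38 times the DMSO level. The 95% interval of its coefficient was 0.09 to 0.55. LARS, the leucyl enzyme that also acts as a leucine sensor upstream of mTORC1, had 0.22 ± 0.09 in the authors' deposited table (unadjusted p = 0.0176, adjusted p = 0.340). DARS, the aspartyl enzyme, and IARS, the isoleucyl enzyme, followed with 0.18 and 0.17 there. MARS, the methionyl enzyme, had 0.07 and RARS, the arginyl enzyme, 0.04 in the authors' deposited table. EPRS joins the glutamyl and prolyl enzymes in a single chain, and its coefficient of -0.01 ± 0.08 was the most precise of any member. Its 95% interval runs from -0.17 to 0.15, or 0.841 to 1.16 times the DMSO level.

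QARS, the glutaminyl enzyme, was the lowest member of the complex. Its coefficient was -0.28 ± 0.14 (implied SE) in the authors' deposited table, 0.756 times the DMSO level (95% interval 0.573 to 0.996; unadjusted p = 0.0471, adjusted p = 0.471). Only 9.26% of all genes were lower. QARS was also the only member whose 95% interval lay wholly below the median of all genes, and no member's interval lay wholly above it; its adjusted p on that centring was 0.342. In the complex, QARS sits with RARS and AIMP1 in a subcomplex. AIMP1 exceeded it by 0.62 (95% interval 0.19 to 1.05) and RARS by 0.32 (-0.07 to 0.71). KARS exceeded QARS by 0.60 (0.24 to 0.96). These contrasts were picked after the values were seen and are descriptions without a test.

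The bases at which an mRNA begins bear on translation efficiency, since mRNAs that start with a C followed by a run of pyrimidines (a terminal oligopyrimidine, or TOP, start) are regulated as a class. The windows here therefore show the annotated starts for 8 of the 11 complex members, with NARS and WARS2 for comparison; for genes with several annotated starts the one shown is the first along the gene, except for WARS2, where the second is shown. Sequences are from RefSeq (GRCh38.p14), run from 10 bases before the start to 20 bases from it on the gene's strand, and the 5 capitals are the first transcribed bases of the annotated gene.
QARS, chr3:49104738-49104767, minus strand: gcctaagtttCTTTTagtttccggtgtctc
KARS, chr16:75647646-75647675, minus strand: tatcctccttACTTTtgggtcgggccctcc
AIMP1, chr4:106315534-106315563, plus strand: cctctgcttcACTTTctcctactgctcaag
AIMP2, chr7:6009262-6009291, plus strand: cagcagggtcAGAAGggaggtggccggtct
EEF1E1, chr6:8102529-8102558, minus strand: tgcaggtctcGCGTCtgccaggagctacgg
MARS, chr12:57488058-57488087, plus strand: ttccggttgcATCAGcgagggattcacggc
RARS, chr5:168486461-168486490, plus strand: gcttccgtccACTTGgcgagtgagacgctg
EPRS, chr1:220046486-220046515, minus strand: ggggcggagcGAAGGctgcggcggcgtcgg
NARS, chr18:57621817-57621846, minus strand: aggcgccctcAGATCtacgctctctgatgc
WARS2, chr1:119140634-119140663, minus strand: cggctccgccCTTCTcaagatggcgctgca

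Starts were found for 9 of the 11 complex members, not for DARS and LARS, and of those 9 only QARS had an annotated start that was itself a C followed by 4 pyrimidines on the gene's strand. Among the 27 members with a start in the RefSeq table it shared this with WARS2, which has it at the second of its starts. These 2 members are 7.41% of the 27, close to the 7.77% of 5289 genes of the authors' deposited table that could be matched. The 411 genes with such a start had a median coefficient of 0.03, and those without had 0.10. KARS and AIMP1 carry the same kind of run 1 base further in, and their coefficients were 0.32 and 0.34 in the authors' deposited table. With any position up to 3 bases from the start allowed, a choice made after the data were seen, 8 of 27 members had the run (29.6%, against 19.4% of genes), and their coefficients spanned -0.50 to 0.34. Over the matched genes, the median was 0.06 with a run under this wider rule and 0.10 without. Which starts HL-60 cells use was not analysed here, and whether the start bears on the coefficient of QARS or any other member was not tested. The ATF4-type element TGATGNAA, searched on both strands of the 250 bases before the start, was found for IARS, GARS, AARS and YARS2, 14.8% of 27 members against 1.89% of the matched genes. Their coefficients were 0.17, 0.08, 0.00 and -0.18 in that order in the authors' deposited table.

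Cytosolic enzymes outside the complex spread around the median of all genes. The 9 of them had a median of 0.11 and ranged from -0.22 to 0.28 in the authors' deposited table. NARS, the asparaginyl enzyme, was highest with 0.28 ± 0.10 (implied SE) in the authors' deposited table (unadjusted p = 0.00444), 1.33 times the DMSO level with a 95% interval of 1.09 to 1.61. It had the smallest p of any member. The tyrosyl enzyme YARS, with 0.21, and the threonyl enzyme TARS, with 0.20, came next there, followed by FARSB, the beta subunit of the phenylalanyl enzyme, with 0.17. WARS, the interferon-inducible tryptophanyl enzyme, had 0.11 in the authors' deposited table, GARS, the glycyl enzyme, 0.08 and AARS, the alanyl enzyme, 0.00 ± 0.12. Lowest were HARS, the histidyl enzyme, with -0.10 ± 0.27, and SARS with -0.22 ± 0.21 (unadjusted p = 0.298, adjusted p = 0.777) in the authors' deposited table. SARS is the seryl enzyme, which also provides the seryl-tRNA from which selenocysteine is made. Both low values had the widest errors of the cytosolic enzymes, and their intervals hold both 0 and the median of all genes.

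Mitochondrial enzymes lay mostly below the median of all genes, without any single one standing out. In the authors' deposited table the median over them was -0.06, 4 of 12 were above 0, and 11 of 12 (91.7%) were below the median of all genes. The exception was the asparaginyl enzyme NARS2, with the highest coefficient at 0.30 ± 0.30 (implied SE) in the authors' deposited table (unadjusted p = 0.306, adjusted p = 0.781). CARS2, for cysteine, had 0.09, IARS2, for isoleucine, 0.02 and AARS2, for alanine, 0.02 in the authors' deposited table. RARS2, for arginine, had -0.02 and MARS2, for methionine, -0.04 in the same table. TARS2, for threonine, had -0.13, YARS2, for tyrosine, -0.18 and EARS2, for glutamate, -0.21 in the authors' deposited table. The lowest were FARS2, for phenylalanine, with -0.43 ± 0.43 and WARS2, for tryptophan, with -0.50 ± 0.46 (unadjusted p = 0.281, adjusted p = 0.769) in the authors' deposited table. These are also the 2 least precise members: the interval of WARS2 runs from 0.244 to 1.51 times the DMSO level. None of the 12 had an unadjusted p below 0.05, either as deposited or with the median of all genes as zero. After that centring the SD of coefficient over implied standard error was 0.587 among them. It was 1.15 for all genes, 1.43 for the complex and 1.04 for other cytosolic enzymes, where errors alone would give about 1. The spread among mitochondrial enzymes was thus no larger than their errors.

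For 11 pairs the table held both the cytosolic and the mitochondrial enzyme of an amino acid, with EPRS set against EARS2 for glutamate and FARSB against FARS2 for phenylalanine. The cytosolic enzyme had the higher coefficient in 9 pairs and the lower in 2. The median difference was 0.20, and the differences ran from -0.02 to 0.61. The largest were those of WARS over WARS2, 0.61 (95% interval -0.34 to 1.56), and of FARSB over FARS2, 0.60 (-0.28 to 1.48). YARS exceeded YARS2 by 0.39 (-0.10 to 0.89) and TARS exceeded TARS2 by 0.32 (-0.17 to 0.81). The best-measured pair, IARS and IARS2, differed by 0.15 (-0.17 to 0.46). The asparaginyl pair lay closest together among the high values, with NARS below NARS2 by 0.02 (interval of the difference -0.63 to 0.59), and the alanyl pair also differed by -0.02 (-0.50 to 0.46). The interval held 0 in every one of the 11 pairs, so no pair was shown to differ, and none was shown to be alike.

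**Figure D2:**
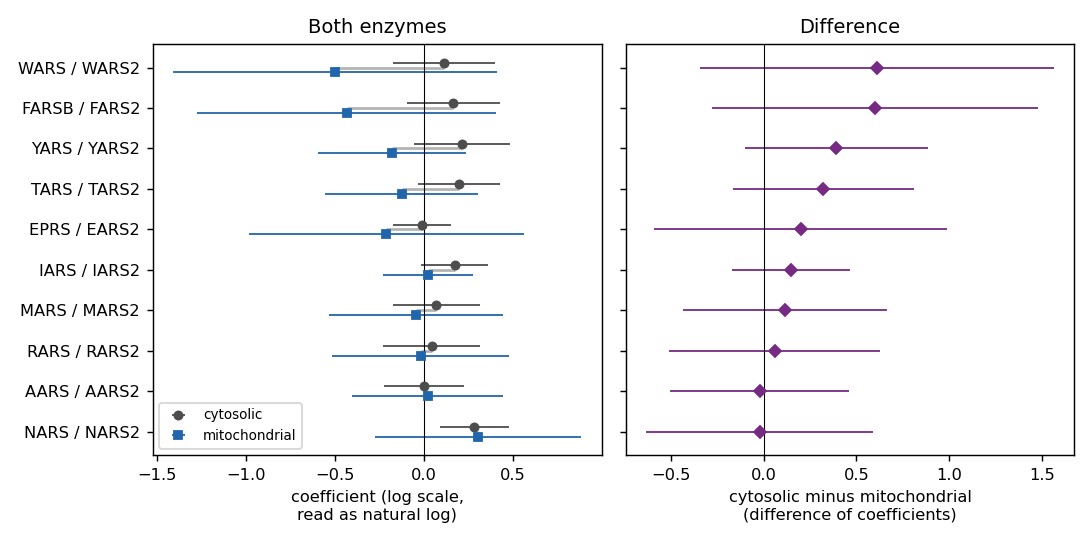
Left, coefficients of the cytosolic (circles) and mitochondrial (squares) enzyme for the same amino acid with 95% intervals, for 10 of the 11 pairs; right, their difference, cytosolic minus mitochondrial, with its 95% interval, both on the log scale of the authors' deposited table. The difference is above 0 in 8 of the 10 pairs shown, from -0.02 to 0.61, and each interval crosses 0.

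Set side by side, cytosolic members had a median of 0.17 and mitochondrial enzymes one of -0.06, a difference of 0.23 in the coefficients of the authors' deposited table. With the 3 scaffold proteins left out, the cytosolic median was 0.11 and the difference 0.17. Of the 20 cytosolic members, 12 (60.0%) were above the median of all genes, against 1 of 12 mitochondrial enzymes (8.33%). Precision differed as well: the median implied standard error was 0.13 for cytosolic members and 0.23 for mitochondrial enzymes, against 0.25 for all genes. The 5512 other genes in the same range of implied standard error as the mitochondrial enzymes had a median of 0.09. The 3277 in the range of the cytosolic members had 0.10. Both ranges are wide, overlap and hold a large part of all genes, so medians near that of all genes follow almost by construction. Whether precision bears on the difference between compartments was not tested. Members are not replicates of a condition, so these medians carry no test.

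**Figure D3:**
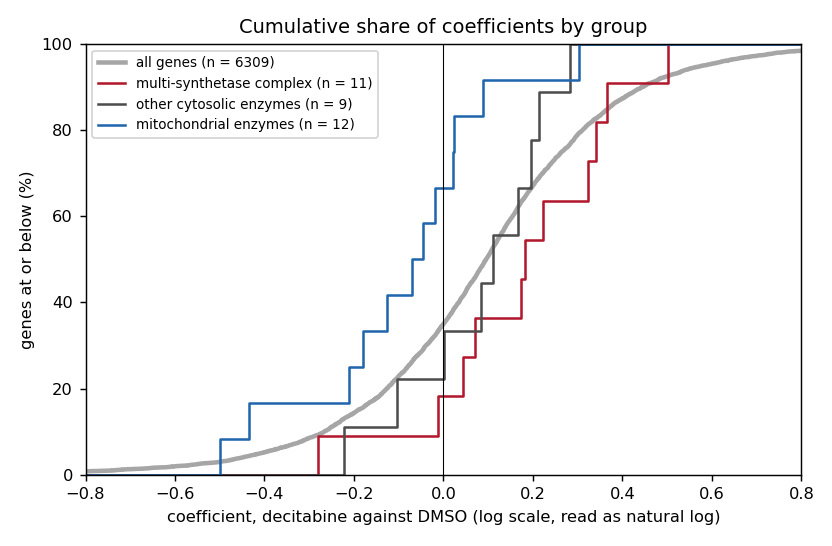
Cumulative share (percent) of genes at or below each coefficient (log scale of the authors' deposited table) for all 6309 genes, 11 complex members, 9 other cytosolic enzymes and 12 mitochondrial enzymes; 149 genes lie beyond the plotted range. The curve of the mitochondrial enzymes runs left of that of all genes over most of the range, with medians of -0.06 and 0.09. The curve of the complex lies right of that of all genes around its median of 0.18 and crosses it at the upper end.

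Members of the complex had a median of 0.18, against 0.00 for the 21 members outside it and 0.11 for the 9 other cytosolic enzymes. The difference of 0.18 from the members outside thus includes the compartment; within the cytosol the complex exceeded the other enzymes by 0.07. Without AIMP1, AIMP2 and EEF1E1 that difference was 0.01, and with precision-weighted means in place of medians it was -0.00, with 0.13 in both groups. Of the 11 members of the complex, 4 (36.4%, against 8.35% of all genes) had an unadjusted p below 0.05 with a positive coefficient and 1 (9.09%, against 1.95%) with a negative one. With the median of all genes as zero the 4 became 0 (against 3.69% of all genes) and the 1, QARS, remained (against 4.25%). The median implied standard error was 0.14 in the complex and 0.25 for all genes. Whether precision bears on these shares was not tested. Among the 21 outside, NARS alone had an unadjusted p below 0.05, and with that zero none had. The SD of the coefficients was 0.22 within the complex and 0.16 among the other cytosolic enzymes.

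**Figure D4:**
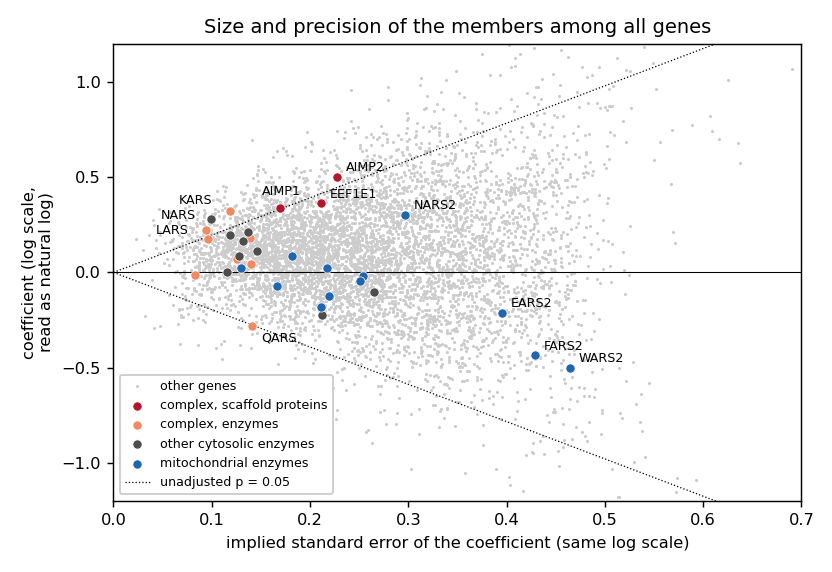
Coefficient against its implied standard error, both on the log scale of the authors' deposited table, for the members (coloured) and all other genes (grey); dotted lines mark an unadjusted p of 0.05, and 25 genes lie outside the axes. KARS, NARS, LARS, AIMP1 and AIMP2 lie above the upper line and QARS below the lower one, while the low values of WARS2 and FARS2 lie at implied standard errors of 0.46 and 0.43.

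Medians by catalytic class lay closer together than medians by compartment. Class I and class II synthetases have unrelated catalytic domains. The 7 cytosolic class I enzymes had a median of 0.11 and the 9 of class II one of 0.17 in the authors' deposited table, with EPRS, which holds a domain of each, left out. The 7 mitochondrial enzymes of class I had a median of -0.04 and the 5 of class II one of -0.07. The enzymes that serve both compartments were counted as cytosolic; KARS was the highest enzyme of all at 0.32 and GARS lay near the median of all genes at 0.08.

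Other genes of tRNA charging and use were taken from 6 lists, which held 42 measured genes of 60. A single one (2.38%, against 0.808% of all genes) passed an adjusted p of 0.05 in the authors' deposited table: EEF1A1, which delivers charged tRNA in the cytosol, was lower, with -0.23 ± 0.03 (implied SE, adjusted p = 2.55e-09). Its exchange factor subunits EEF1G and EEF1B2 had -0.19 and -0.08 there, whereas EEF1E1, named for its similarity to that family but a member of the synthetase complex, had 0.36. With the median of all genes as zero, EEF1G passed as well (-0.29, adjusted p = 0.00527, recomputed from the authors' deposited table), which made 2 of 42 (4.76%, against 0.586% of all genes), both lower. In mitochondria TUFM, which delivers charged tRNA, had 0.31 ± 0.10 in the authors' deposited table (unadjusted p = 0.00284, adjusted p = 0.151), and its exchange factor TSFM had -0.01. GATB and QRSL1 are subunits of the amidotransferase that makes mitochondrial glutaminyl-tRNA in place of a mitochondrial glutaminyl enzyme, and their coefficients were 0.40 ± 0.24 and -0.41 ± 0.25 in the authors' deposited table.

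Genes that process, splice and export tRNA had a median of 0.01 over 18 of 26, and none passed in the authors' deposited table. XPOT, which exports tRNA from the nucleus, had 0.22 ± 0.13 (implied SE) there. In the selenocysteine pathway, 5 of 6 were measured and none passed; SECISBP2, which binds the selenocysteine insertion element, stood at 1.04 ± 0.39 in the authors' deposited table (adjusted p = 0.221). Of the 14 genes of uncharged tRNA sensing and amino acid supply, 12 were measured, with a median of 0.19, and none passed. SLC7A5, a transporter of leucine and other large amino acids, had the smallest p, with 0.38 ± 0.17 in the authors' deposited table (adjusted p = 0.383). ATF4 had 0.20 ± 0.25, GCN1, the activator of GCN2, 0.20 ± 0.10 and asparagine synthetase ASNS -0.13 ± 0.16 in the authors' deposited table. None of the 3 trans-editing genes was found by symbol in the authors' deposited table.

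Some members share sequence or position with other genes, and no source used here says how the authors counted shared reads or strand. RefSeq names pseudogenes for 12 of the 32 members, among them 3 for KARS, 2 for NARS, 2 for AIMP1 and 1 for EEF1E1, so the values of these genes are uncertain to that extent. The spans of 8 members overlap another protein-coding gene: AIMP1 overlaps TBCK and AIMP2 overlaps EIF2AK1, and MARS overlaps DDIT3, which lies on the opposite strand. As whole-gene spans on GRCh38.p14, QARS (ENSG00000172053) lies on chromosome 3 from 49095932 to 49104757, KARS (ENSG00000065427) on chromosome 16 from 75627724 to 75647665, and NARS (ENSG00000134440) on chromosome 18 from 57600656 to 57621836. LARS (ENSG00000133706) lies on chromosome 5 from 146113034 to 146182650, AIMP1 (ENSG00000164022) on chromosome 4 from 106315544 to 106349456, AIMP2 (ENSG00000106305) on chromosome 7 from 6009272 to 6023834, and EEF1E1 (ENSG00000124802) on chromosome 6 from 8073360 to 8102548. The authors' deposited table held no row under some synthetase symbols, so the group medians leave these genes out. They are the cytosolic CARS, FARSA, VARS and TARSL2 and the mitochondrial HARS2, LARS2, PARS2, SARS2 and VARS2.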

How the data were processed

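Ribosome-protected fragments and total RNA of HL-60 lysates were sequenced, and Bowtie2, SAMtools 1.11, UMI-tools 1.1.1 and the build hg38 are named in the submitters' processing notes, with no role given. The authors' deposited table holds 1 transcript per gene with a coefficient on a log scale, read here as natural log because its headers carry R's names for a generalised linear model; no source used here gives the base, the model program, the count filter or the library scaling. It also holds a p-value, an adjusted p-value and a q-value per gene, per the file headers. Recomputing the Benjamini-Hochberg adjustment over all 6309 genes returned the deposited adjusted values.

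The implied standard error is the coefficient divided by the z of its two-sided p-value, and 95% intervals follow from it. Differences between members add these errors in squares, as if independent. Centred p-values were recomputed and adjusted over all genes. Full statistics are given for unadjusted p below 0.05 and the extremes of each group, and the smallest p of each pathway list; some results of single genes, and 1 start window, are not reported here. Other genes singled out were chosen after their values were seen. Members and lists were chosen with earlier results of these data known. Gene spans and start windows came from RefSeq by symbol: all 32 members matched, 16 through a newer symbol, and 27 had a start. Calculations used Python 3.11.15, numpy 2.4.6, pandas 2.3.3 and scipy 1.17.1 and were tested on simulated data. No test of counts was possible on this table.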

Additional observations from a re-analysis of the deposited data

How the results depend on the processing

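No member passed in either direction at an adjusted p of 0.01 or 0.1, with the q-value, with the Benjamini-Yekutieli adjustment, after centring, or without the 25% least precise genes. The lowest adjusted p and q-value of any member were 0.176 and 0.146, both for NARS. The other cutoffs, the q-value and the stricter Benjamini-Yekutieli adjustment could therefore give no other outcome. The 5 unadjusted higher members became 0 with the median of all genes as zero and 1 (KARS) with the precision-weighted mean, alternatives chosen after seeing the data; QARS, the single lower one, kept its p below 0.05 in both. With the median of all genes as zero, the group medians were -0.0385 (all members), 0.0746 (cytosolic), -0.152 (mitochondrial), 0.0865 (complex), 0.0161 (other cytosolic) and -0.0949 (outside the complex). Members above zero then numbered 13 in all, 1 mitochondrial and 6 outside the complex, and the precision-weighted mean as zero gave the same numbers. The pathway genes called lower went from 1 to 2 with the median as zero, a count added after seeing the data. The mean gave 0.133 for cytosolic members and -0.0200 outside the complex. The precision-weighted mean gave 0.105 for all members, 0.133 for cytosolic members, 0.133 for the complex, 0.0789 outside it, 0.0537 for complex minus outside and -0.00181 for complex minus other cytosolic. Without AIMP1, AIMP2 and EEF1E1 the medians were 0.0246 for all members, 0.111 cytosolic and 0.122 in the complex, with 0.122 for complex minus outside and 0.0107 for complex minus other cytosolic. Without imprecise members the median of all was 0.0839. Without KARS1 and GARS1, or with 1 member left out at the lowest, the median outside the complex was -0.00908. Shifts of zero and the removal of members follow from their construction; the cause of the other changes was not tested.

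The difference between cytosolic and mitochondrial medians ran from 0.166 to 0.240 over the alternatives run. Coefficients near 0 changed sign with the median as zero: CARS2 -0.00742, GARS -0.0111, MARS -0.0248, RARS -0.0522, IARS2 -0.0704, AARS2 -0.0740 and AARS -0.0949. On the precision-weighted mean these were -0.00205, -0.00570, -0.0194, -0.0469, -0.0650, -0.0686 and -0.0896 in the same order. With errors widened by the SD of centred z, 1.15, no pair interval excluded 0, which was fixed in advance because every interval already held 0. No paired analysis was possible because the table holds no value per library; for the same reason no replicate could be left out. Precision limits the mitochondrial enzymes most, with implied standard errors up to 0.46.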
